A study of Mus musculus with 16 samples.

Results

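Proteasome genes were followed across 4 ages of mouse gastrocnemius muscle. They were chosen as the array probes whose gene symbol starts with Psm, goes on with a letter a to g and ends in a number. That rule took 59 of 55681 probes, which stand for 48 genes of 37208 gene or transcript names on the array. Of these genes 46 were measured, each with at least 1 probe well above background on all 16 arrays. The remaining genes, Psma8 and Psmb11, encode core subunits known from testis and thymus, and their probes were above background on 0 arrays. Mice were C57Bl/6J females that had received no treatment, aged 3, 15, 24 and 29 months, with 4 samples at each age and 1 one-colour array for each sample. The gastrocnemius is a calf muscle of mainly fast fibres, and all 8 muscle fibre markers examined were measured. Values are log2 signals from which the 75th percentile of the array was subtracted, so differences are on the log2 scale. A probe's level depends on its sequence, so levels are compared between ages and never between genes.

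The proteasome degrades proteins that carry chains of ubiquitin. Its 20S core is a barrel of alpha and beta subunits with the proteolytic sites inside, and the 19S regulatory particle on its end consists of a base, whose ATPases unfold the substrate, and a lid, which removes the ubiquitin. In muscle this system breaks down myofibrillar proteins during wasting. In cells exposed to interferon, the inducible catalytic subunits Psmb8, Psmb9 and Psmb10 take the places of Psmb5, Psmb6 and Psmb7 and form the immunoproteasome, which cuts peptides for antigen presentation.

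On an array, 48.0% to 60.9% of the spots that were not controls were well above background, and 0 spots were saturated. Slide 1 carried 3 and 15 months and slide 2 carried 24 and 29 months, so 29 against 24 months and 15 against 3 months were compared within a slide. In 29 against 3 and 24 against 3 months, age and slide cannot be told apart. The labels do not state whether samples of an age are separate animals, and p-values rest on the spread among them, part of which may be technical. Array 1 of 29 months stood apart from the others of its age, with the lowest limma array weight of the 16 (0.275) and muscle fibre markers 0.44 log2 units below their mean over all arrays (deviation -0.44). Arrays 2 and 4 of 24 months and array 3 of 29 months had the next lowest weights (0.364, 0.524 and 0.400). The immunoproteasome changes against 3 months, which rest most on these arrays, are given with and without them.

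At 29 against 3 months, 6 of 46 proteasome genes were higher and 0 were lower at an adjusted p under 0.05 (limma, Benjamini-Hochberg over all 21777 genes tested). Across all genes tested, 14.8% passed that threshold, 6.84% as higher and 7.95% as lower, so the members' share of higher calls was 6 of 46 beside a background of 6.84%. The 6 genes were the lid subunits Psmd11 and Psmd8, the base subunits Psmd4 and Psmc2, and the core alpha subunits Psma7 and Psma5. No catalytic subunit was among them. The 4 arrays of 29 months lay above the 4 of 3 months in 6 of 46 members, beside 8.49% of all genes. These were the same 6 genes. Call and separation rest on the same arrays, so the separation adds no support. All members had a median log2 change of 0.12, and 35 of 46 were above 0, beside a median of -0.04 and 45% above 0 over all genes. Without array 1 of 29 months, 10 genes were higher, and without array 2 or array 3 of 3 months 3 were. When each array was scaled by its median, 1 gene, Psmd11, was higher, and in a fit of these ages alone 2 were, Psmd11 and Psmd4. The share of all genes called in these changed fits is not given here, so these numbers stand without a background. A lower call, that of Psmg1, appeared in 7 of 30 alternatives.

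**Figure D1:**
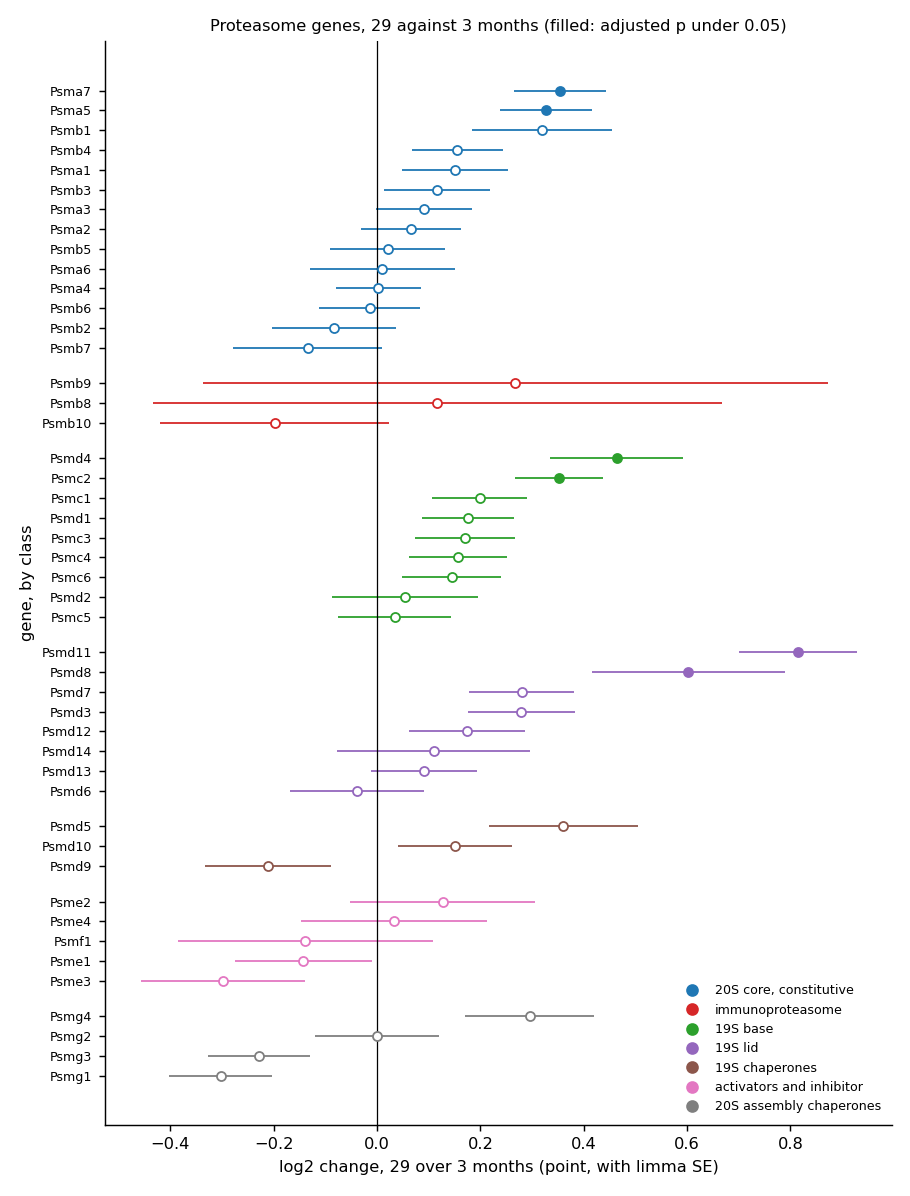
Log2 change at 29 over 3 months (horizontal axis) of each of the 46 measured proteasome genes, grouped by class. Points are limma estimates from 4 arrays an age, lines are 1 SE to each side, and filled points have an adjusted p under 0.05. The filled points are Psmd11, Psmd8, Psmd4, Psmc2, Psma7 and Psma5, all to the right of 0, and the lines of Psmb8 and Psmb9 are the longest.

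The lid held the member with the largest rise. Psmd11 encodes a scaffold subunit of the lid that also contacts the core. Its log2 signal was 3.83, 4.03, 4.26 and 4.16 on the 4 arrays of 29 months, against 3.48, 3.03, 3.24 and 3.27 on those of 3 months. Every array of 29 months lay above every array of 3 months. The log2 change was 0.81 ± 0.11 (SE, n = 4 arrays an age), 1.76-fold, with a limma adjusted p of 0.000355. At 15 months Psmd11 read 3.22, 3.20, 3.45 and 3.30, and at 24 months 3.70, 3.52, 3.59 and 3.54. These put all arrays of 24 months between the other ages, above those of 3 and 15 months and below those of 29 months. The call at 29 against 3 months held in all 30 alternatives tried, with log2 changes of 0.74 to 0.89.

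Psmd8, a lid subunit that joins late in lid assembly, read 3.84, 3.85, 4.73 and 4.22 at 29 months, against 3.68, 3.75, 3.35 and 3.45 at 3 months. The groups did not overlap, although the lowest arrays of 29 months exceeded the highest of 3 months by little. Its log2 change was 0.60 ± 0.19 (SE, n = 4), with a limma adjusted p of 0.0423, and it lost the call in 15 of 30 alternatives, among them the fits without array 3 or array 4 of 29 months and without any single array of 3 months. Among the other 6 lid genes, Psmd7 (0.28, limma adjusted p 0.079) and Psmd3 (0.28, limma adjusted p 0.0866) did not pass. Psmd14, the deubiquitinase that strips ubiquitin from substrates, had a log2 change of 0.11 ± 0.19 (SE, n = 4). Its arrays of 3 months spread from 1.16 to 1.88. Psmd6 had the lowest lid value, reading 4.56, 4.83, 5.06 and 4.97 at 29 months and 5.04, 5.03, 4.75 and 4.76 at 3 months, with a log2 change of -0.04. Over the 8 lid genes the median log2 change was 0.23.

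All 9 base genes had log2 changes above 0, with a median of 0.17, and 2 of them passed. Psmd4, a receptor for ubiquitin chains on the base, read 6.88, 7.07, 6.96 and 6.98 at 29 months, against 6.51, 6.36, 6.52 and 6.63 at 3 months. Its log2 change was 0.46 ± 0.13 (SE, n = 4, limma adjusted p 0.0254), with no overlap of the groups, and it lost the call in 7 of 30 alternatives. At 24 months Psmd4 was highest on array 2, at 7.19, beside 6.80, 6.55 and 6.49 on the others. Psmc2, 1 of the 6 ATPases of the base, read 6.36, 6.63, 6.68 and 6.55 at 29 months, against 6.22, 6.15, 6.22 and 6.21 at 3 months. Its log2 change was 0.35 ± 0.09 (SE, n = 4, limma adjusted p 0.0126), and its groups did not overlap. The call was lost in 3 of 30 alternatives, as was that of the core gene Psma7. The other ATPases, Psmc1, Psmc3, Psmc4, Psmc5 and Psmc6, had log2 changes of 0.03 to 0.20 and did not pass. The lowest of the base was Psmc5, with 5.16, 5.24, 5.48 and 5.39 at 29 months and 5.17, 5.19, 5.38 and 5.39 at 3 months.

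In the constitutive core, 2 of 14 genes were higher and the median log2 change was 0.08. Both encode subunits of the outer alpha rings, which gate entry to the barrel. Psma7 read 5.90, 6.26, 6.17 and 6.14 at 29 months, against 5.81, 5.75, 5.71 and 5.79 at 3 months (log2 change 0.35 ± 0.09, SE, n = 4, limma adjusted p 0.015). Psma5 read 4.73, 5.02, 4.67 and 4.82 at 29 months, against 4.58, 4.41, 4.46 and 4.49 at 3 months (0.33 ± 0.09, SE, n = 4, limma adjusted p 0.0236). Neither gene's groups overlapped, and Psma5 lost the call in 10 of 30 alternatives. Across the 7 alpha and 7 beta genes of this class, the changes ran from -0.13 for Psmb7 to 0.35 for Psma7.

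**Figure D2:**
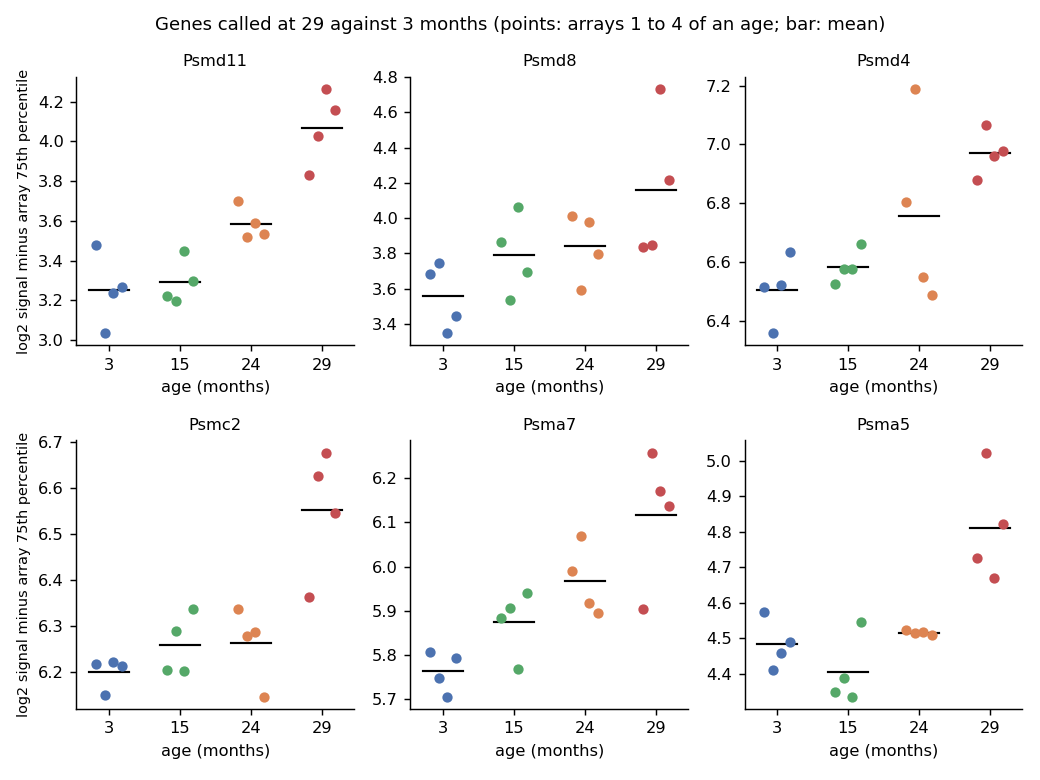
Log2 signal minus the array's 75th percentile (vertical axis, a separate scale for each gene) by age in months (horizontal axis) for the 6 genes higher at 29 against 3 months. Points are the 4 arrays of an age in replicate order and bars are means. In each panel all points of 29 months lie above all points of 3 months, and array 1 of 29 months is the lowest of its age for all of them except Psma5.

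The 3 constitutive catalytic subunits did not pass at 29 against 3 months. Psmb5, which carries the chymotrypsin-like site, read 7.15, 7.74, 7.45 and 7.54 at 29 months and 7.46, 7.37, 7.49 and 7.47 at 3 months. The log2 change was 0.02, with a 95% interval of -0.22 to 0.26, and the second probe of Psmb5 gave -0.08. Psmb6, with the caspase-like site, read 6.75, 7.12, 7.09 and 7.16 at 29 months and 6.99, 6.91, 7.12 and 7.14 at 3 months (-0.01, interval -0.22 to 0.19). Psmb7, with the trypsin-like site, read 4.52, 4.69, 4.95 and 4.98 at 29 months and 5.07, 5.04, 4.76 and 4.81 at 3 months (-0.13, interval -0.44 to 0.17). The groups overlapped for all 3 genes, and array 1 of 29 months was the lowest of its age for each.

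The immunoproteasome subunits differed widely between arrays of the old ages. Psmb8 read 2.37, -0.50, -1.46 and -0.33 at 29 months, against -0.11, -0.09, -0.01 and -0.17 at 3 months. Psmb9 read 2.31, -0.69, -1.53 and -0.43 at 29 months, against -0.48, -0.34, -0.36 and -0.23 at 3 months. In both genes array 1 of 29 months was the highest of all 16 arrays and array 3 of 29 months the lowest. Psmb10 read 4.25, 3.71, 3.07 and 3.56 at 29 months, against 3.72, 3.87, 3.83 and 3.96 at 3 months, with the same arrays at the ends of its range at 29 months. The median SD of the 3 genes was 1.64 at 29 months, against 0.0985 at 3 months, beside 0.254 and 0.165 for the median gene of all genes tested. For the constitutive core it was 0.148 at 29 months, against 0.0967 at 3 months.

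Because of this spread, the mean change of the 3 genes at 29 against 3 months was poorly defined and none passed the test. Their median log2 change was 0.12. That of Psmb8 was 0.12 with a 95% interval of -1.06 to 1.29, that of Psmb9 0.27 (-1.02 to 1.56) and that of Psmb10 -0.20 (-0.67 to 0.28). Without array 1 of 29 months these became -0.67 for Psmb8, -0.53 for Psmb9 and -0.40 for Psmb10, with limma adjusted p of 0.108, 0.372 and 0.218. Without array 3 of 29 months they became 0.61, 0.75 and -0.0057, with limma adjusted p of 0.474, 0.438 and 0.991, so the sign of Psmb8 and Psmb9 turned with the array left out. At 24 months Psmb9 was high on arrays 2 and 4, at 1.38 and 0.74, beside -0.56 and -0.15 on arrays 1 and 3. Psmb8 was highest on array 4 of that age (0.62, beside -0.46, -0.14 and -0.11 on arrays 1 to 3), and Psmb10 on array 2 (4.54, beside 3.62, 3.65 and 3.70 on the others). The log2 changes at 24 against 3 months were 0.07 for Psmb8, 0.70 for Psmb9 and 0.03 for Psmb10, and none passed. Without array 2 of 24 months they were 0.11, 0.36 and -0.19, and without array 4 they were -0.14, 0.57 and 0.09. At 15 months all 4 arrays of each gene lay below all 4 arrays of 3 months. Psmb8 read -0.71, -0.49, -0.29 and -0.63 at that age, Psmb9 -0.78, -0.86, -0.79 and -0.83, and Psmb10 3.54, 3.63, 3.56 and 3.66.

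**Figure D3:**
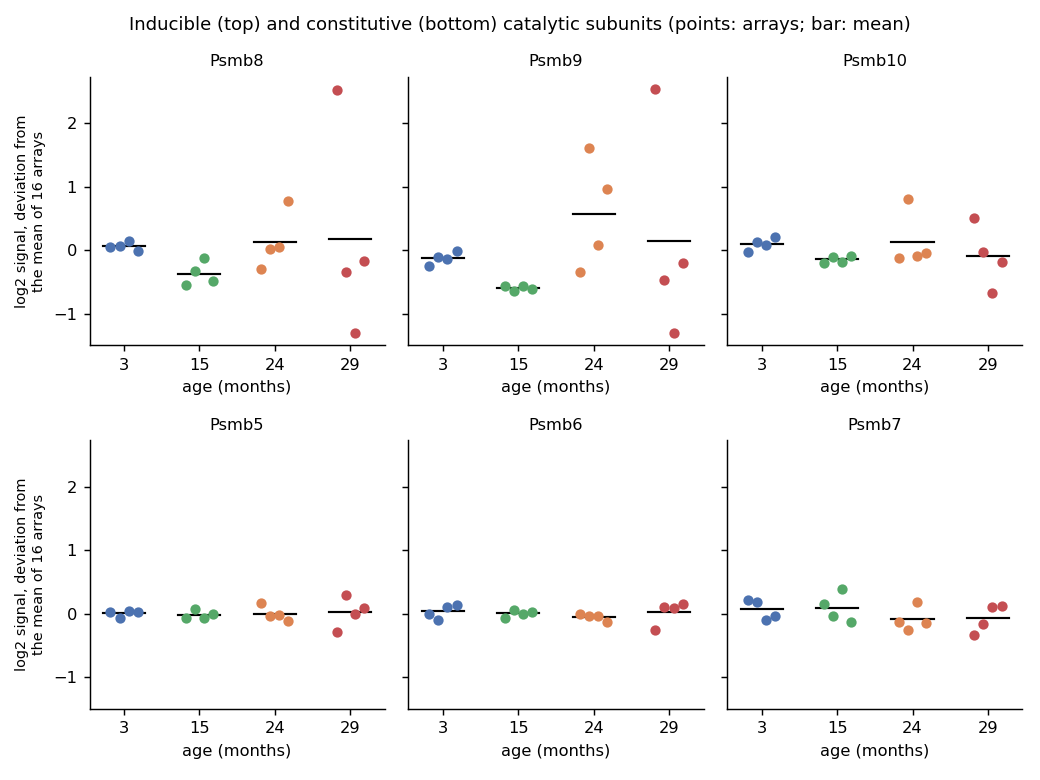
Deviation of the log2 signal from the gene's mean over 16 arrays (vertical axis, 1 scale for all panels) by age in months (horizontal axis), with the inducible catalytic subunits above and the constitutive subunits they replace below. Points are the 4 arrays of an age in replicate order and bars are means. Psmb8 and Psmb9 spread widely at 29 months, with array 1 highest and array 3 lowest, whereas the points of Psmb5, Psmb6 and Psmb7 lie closer to 0.

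Array 1 of 29 months and arrays 2 and 4 of 24 months had the highest mean of the 3 immunoproteasome subunits, deviating by 1.85, 0.81 and 0.57. The same arrays were the highest of the 16 in lists of interferon and antigen processing genes, of T and NK cell markers and of B and plasma cell markers. In macrophage markers, 6 measured of 8, these arrays went different ways. Array 1 of 29 months and array 4 of 24 months had the highest mean deviations there (0.868 and 0.718). Array 2 of 24 months had the lowest of the 16 (-0.998). The mean of 15 measured genes of 16 in an interferon and antigen processing list deviated from its overall mean by 1.35 on array 1 and -0.80 on array 3 of 29 months, by 0.57 on array 2 and 0.26 on array 4 of 24 months, and by -0.09 to 0.04 at 3 months. Members of that list went different ways on arrays 2 and 4 of 24 months. Isg15 (0.41 and 0.84) and Gbp2 (-0.89 and -0.07) lay below all arrays of 3 months. H2-K1 (5.49 and 4.98) and B2m (4.77 and 4.54) lay above them. Of 12 T and NK cell markers 5 were measured. Their mean deviation ranged from -0.34 to -0.17 at 3 months, from -0.68 to -0.56 at 15 months, from -0.31 to 0.90 at 24 months and from -0.20 to 3.00 at 29 months. The highest values were on array 1 of 29 months (3.00), array 4 of 24 months (0.90) and array 2 of 24 months (0.32), and array 3 of 29 months, lowest in the immunoproteasome, had -0.20. The defining markers Cd3d, Cd3g, Cd8a and Cd8b1 did not pass the filter on dim probes, whereas Cd3e did. For 4 measured B and plasma cell markers of 6, array 1 of 29 months and arrays 4 and 2 of 24 months had 2.90, 2.34 and 0.55, beside -0.86 to 0.22 on the other 13. The B cell markers Cd79a and Ms4a1 did not pass the filter. The part of these cells in the signal of Psmb8, Psmb9 and Psmb10 was not tested. In whole muscle, fewer cells of a type and less RNA per cell cannot be told apart.

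**Figure D4:**
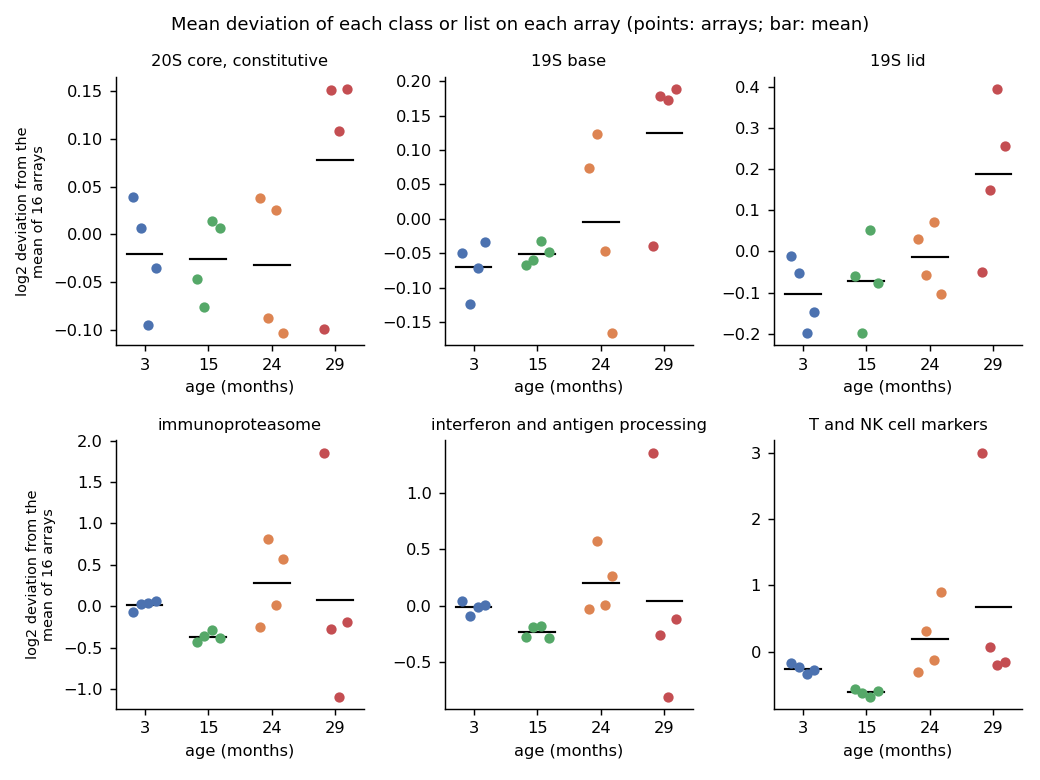
Mean deviation of each class or list from its mean over 16 arrays (vertical axis, log2 units, a separate scale for each panel) by age in months (horizontal axis). Points are the 4 arrays of an age in replicate order and bars are means. Array 1 of 29 months is the lowest of its age for the core, base and lid (-0.10, -0.04 and -0.05) and the highest of all arrays for the immunoproteasome (1.85), the interferon and antigen processing list (1.35) and the T and NK cell markers (3.00).

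Stretches just upstream of 4 genes are shown, because Psmd11 rose most, Psmb5 stands for the constitutive catalytic sites, and Psmb8 and Psmb9 had the same highest and lowest arrays. They are the 250 bases before the start of each gene in RefSeq (GRCm38.p6), printed 5′ to 3′ on the gene's strand, chr11:80428365-80428614 on the plus strand for Psmd11, chr14:54617996-54618245 on the minus strand for Psmb5, chr17:34197945-34198194 on the plus strand for Psmb8 and chr17:34187331-34187580 on the minus strand for Psmb9. Capitals mark a match to a searched motif.
Psmd11: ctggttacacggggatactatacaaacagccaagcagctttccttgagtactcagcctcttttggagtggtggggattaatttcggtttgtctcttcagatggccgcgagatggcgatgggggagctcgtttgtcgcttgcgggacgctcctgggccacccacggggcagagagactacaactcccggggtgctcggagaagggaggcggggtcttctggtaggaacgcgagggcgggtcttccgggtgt
Psmb5: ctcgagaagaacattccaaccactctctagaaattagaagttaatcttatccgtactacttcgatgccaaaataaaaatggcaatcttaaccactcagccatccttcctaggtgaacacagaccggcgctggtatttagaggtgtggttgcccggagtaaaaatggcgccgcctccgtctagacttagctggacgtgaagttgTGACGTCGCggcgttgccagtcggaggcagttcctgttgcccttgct
Psmb8: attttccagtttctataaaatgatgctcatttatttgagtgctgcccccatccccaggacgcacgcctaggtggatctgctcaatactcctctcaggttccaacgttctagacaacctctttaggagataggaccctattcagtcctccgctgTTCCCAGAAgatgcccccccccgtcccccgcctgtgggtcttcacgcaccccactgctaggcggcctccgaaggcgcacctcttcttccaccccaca
Psmb9: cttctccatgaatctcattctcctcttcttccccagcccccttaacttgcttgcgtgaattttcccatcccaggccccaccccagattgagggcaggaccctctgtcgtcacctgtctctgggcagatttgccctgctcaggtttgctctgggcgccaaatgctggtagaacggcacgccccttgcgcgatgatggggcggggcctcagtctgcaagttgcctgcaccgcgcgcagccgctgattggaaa
Both strands of windows reaching from 250 bases before to 50 after the start were searched for the antioxidant response element TGACNNNGC, bound by Nfe2l1 and Nfe2l2, the interferon-stimulated response element, and GAS, the interferon-gamma activated site TTCNNNGAA. Psmb5 held an antioxidant response element beginning 47 bases before the start, and Psmb8 a GAS beginning 97 bases before it. The windows of Psmd11 and Psmb9 held no match, and no match shown overlaps another. Windows were found for 40 of the 48 genes. Of these, 15% held the antioxidant response element (Psmb5, Psmb6, Psmc6, Psmd12, Psmd9 and Psme4), beside 14.0% of 27025 genes. The interferon-stimulated response element was in 12.5% (Psmb3, Psmd4, Psmd9, Psme1 and Psmg4), beside 3.99% of all genes, and GAS in 7.5% (Psmb8, Psmd2 and Psmg1), beside 9.55%. A match is a run of letters and not a measured binding site.

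Of the activators and the inhibitor, 0 of 5 passed at 29 against 3 months, and their median log2 change was -0.14. Psme1 and Psme2 form the interferon-inducible 11S cap that opens the core without ATP. Psme2 read 5.13, 4.60, 4.07 and 4.49 at 29 months and 4.43, 4.44, 4.40 and 4.51 at 3 months, high on array 1 and low on array 3 of 29 months as the immunoproteasome subunits were. Psme1 read 3.65, 3.20, 3.11 and 3.31 at 29 months and 3.46, 3.46, 3.44 and 3.49 at 3 months, with the same arrays at the ends. At 24 months both were highest on array 2, Psme2 at 5.04 and Psme1 at 3.86. Psme3, a nuclear activator, read 1.57, 2.01, 1.59 and 1.93 at 29 months and 1.83, 2.16, 2.16 and 2.14 at 3 months, with a log2 change of -0.30 ± 0.16 (SE, n = 4) and overlapping groups. Psme4, a single-chain activator linked to acetylated histones, read 2.60, 2.80, 2.82 and 2.70 at 29 months and 2.40, 3.07, 2.52 and 2.81 at 3 months, a change of 0.03. Psmf1, named as an inhibitor of the core, had a log2 change of -0.14.

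The chaperones that build the particle had changes in both directions, and none passed with the settings used throughout. Among the 3 chaperones of the base, Psmd5 read 0.87, 1.30, 1.33 and 1.42 at 29 months and 1.04, 0.87, 0.79 and 0.78 at 3 months (0.36, limma adjusted p 0.109), and it passed as higher in 4 of 30 alternatives, all of which drop array 1 of 29 months or weight arrays. Psmd9 read 0.19, 0.37, 0.53 and 0.53 at 29 months and 0.70, 0.76, 0.51 and 0.49 at 3 months (-0.21, limma adjusted p 0.278). Among the 4 chaperones of core assembly, Psmg1 read 2.92, 3.39, 3.09 and 3.21 at 29 months and 3.41, 3.44, 3.46 and 3.51 at 3 months. Its groups did not overlap, yet its log2 change of -0.30 ± 0.10 (SE, n = 4) had a limma adjusted p of 0.0561. It passed as lower in 7 of 30 alternatives, among them quantile normalization, the deposited table, the mean over its probes and the fits without array 4 of 24 months or array 2 of 29 months. Across all genes 11.2% had arrays of 29 months all below those of 3 months, and Psmg1 was the single member that did. Psmg4 read 0.90, 1.01, 0.66 and 0.46 at 29 months and 0.46, 0.41, 0.47 and 0.50 at 3 months (0.30, limma adjusted p 0.13). The differences in median between the classes were not tested.

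Within slide 2, at 29 against 24 months, Psmd11 alone of 46 genes passed, where 1.52% of all genes did, and 1.08% of all genes as higher. It read 3.83, 4.03, 4.26 and 4.16 at 29 months, against 3.70, 3.52, 3.59 and 3.54 at 24 months. The log2 change was 0.48 ± 0.11 (SE, n = 4) with no overlap, and the limma adjusted p of 0.049 lay close to the threshold. The call was lost in 21 of 30 alternatives, 13 of them the omission of 1 array, with adjusted p up to 0.286. Psmc2 read 6.36, 6.63, 6.68 and 6.55 at 29 months, against 6.34, 6.28, 6.29 and 6.15 at 24 months, which did not overlap, as in 4.06% of all genes, but did not pass (0.29, limma adjusted p 0.111). Psma5 was likewise separate, with 4.73, 5.02, 4.67 and 4.82 at 29 months, against 4.52, 4.51, 4.52 and 4.51 at 24 months (0.29, limma adjusted p 0.122). Of 46 members 34 were above 0, where 41.1% of all genes were. That number was 25 after quantile normalization and 43 after scaling each array by its median, a scaling that moved the median log2 change of all genes to 0.10, against -0.05 with the 75th percentile.

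Within slide 1, at 15 against 3 months, 0 of 46 genes passed in limma, where 0.914% of all genes did, and 1 member had an unadjusted p under 0.05 (2371 of 21777 genes did). That member was Psmg3, an assembly chaperone, with a log2 change of -0.26 and a limma adjusted p of 0.323. The immunoproteasome subunits had changes of -0.43 for Psmb8, -0.46 for Psmb9 and -0.25 for Psmb10, and they were 3 of the 5 members whose arrays of 15 months all lay below those of 3 months, where 6.78% of all genes did. In the fit over 16 arrays their SE includes the spread at 24 and 29 months, and the adjusted p was 0.909, 0.913 and 0.825. When the arrays of these ages alone were fitted, the adjusted p was 0.061 for Psmb8, 0.0192 for Psmb9 and 0.145 for Psmb10, so that Psmb9 passed there. The interferon and antigen processing list had a median log2 change of -0.23 in the same comparison, with 0 of 15 genes passing. Its members went both ways, from -0.72 for Irf7 to 0.68 for Ifit3. The T and NK cell markers averaged -0.68 to -0.56 on the arrays of 15 months and -0.34 to -0.17 on those of 3 months, and their part was not tested.

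At 24 against 3 months 0 of 46 genes passed in limma, where 4.44% of all genes did, and 2 members had an unadjusted p under 0.05 (4535 of 21777 genes did). These were Psmd11, with a log2 change of 0.33 ± 0.11 (SE, n = 4, limma adjusted p 0.113), and Psma7, with 0.20 ± 0.09 (SE, n = 4, limma adjusted p 0.204). Members above 0 numbered 26 of 46, where 49.8% of all genes were above 0, and 9 of 46 when arrays were scaled by their median, so no direction of the whole group can be read at 24 months. A straight line fitted to age with a term for slide, which uses differences within slides only, gave 0 calls among members, where 0.602% of all genes passed in limma. Psmg3, at -0.02 log2 units a month, was the single member with an unadjusted p under 0.05 there (2394 of 21777 genes). The difference between the step 29 against 24 months and the step 15 against 3 months gave 0 calls among members in limma, where 0.625% of all genes passed, and 5 members had an unadjusted p under 0.05 (2653 of 21777 genes). Psma5 had the smallest of these, with a difference of 0.37 ± 0.13 (SE, n = 4 arrays an age, limma adjusted p 0.227), and Psmd11 had 0.45 ± 0.16 (SE, limma adjusted p 0.256).

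The other genes of the pathway were taken from a list of 28 names of ubiquitin precursors, shuttles, proteasome-bound enzymes and transcription factors, of which 26 were measured and the other two are old names of listed genes. At 29 against 3 months 7 of 26 were higher and 0 lower, with a median log2 change of 0.23, beside a background of 6.84% higher and -0.04. Nfe2l2, which encodes the antioxidant factor NRF2, read 4.01, 3.77, 4.54 and 3.81 at 29 months, against 2.83, 2.78, 2.94 and 2.91 at 3 months (1.17 ± 0.16, SE, n = 4, 2.25-fold, limma adjusted p 0.000273). Ubb, a gene for a chain of ubiquitin units, had a log2 change of 0.63, and Nploc4 and Ubqln1, partners of the segregase Vcp and of ubiquitin chains, had 0.55 and 0.44. Nfe2l1, which encodes the factor that raises proteasome genes when the particle is inhibited, read 1.43, 1.90, 1.66 and 1.63 at 29 months, against 1.06, 0.86, 0.96 and 1.18 at 3 months (0.64). Zfand5, whose protein binds the proteasome and ubiquitin, and the shuttle Rad23b also passed (0.61 and 0.38). Zfand5 and Rad23b lie outside the 5 smallest p of the list and were named after their values were seen.

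**Figure D5:**
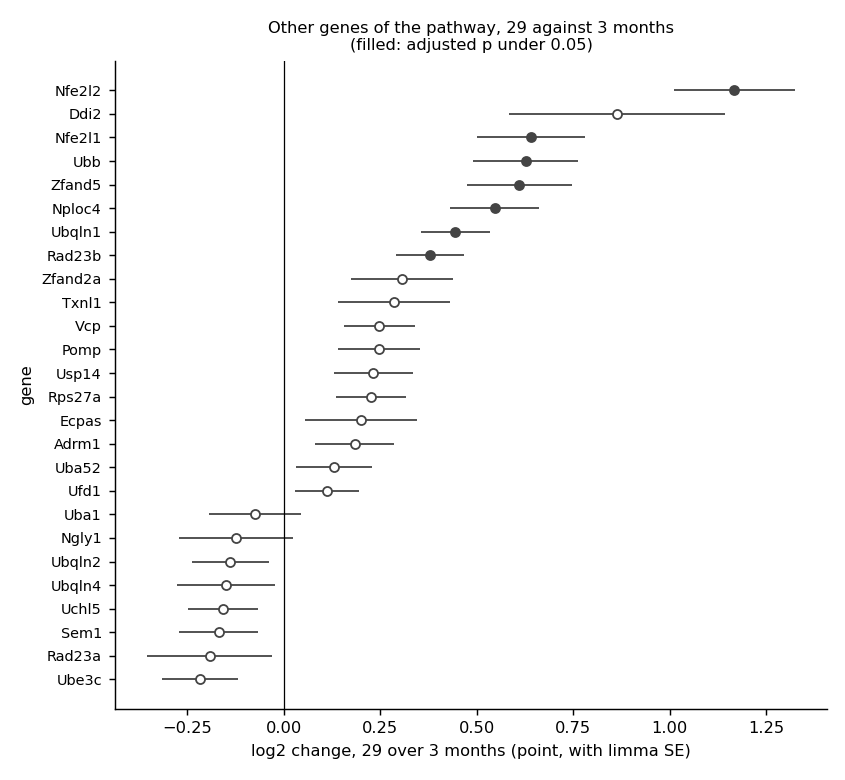
Log2 change at 29 over 3 months (horizontal axis) of the 26 measured genes of the other pathway list. Points are limma estimates from 4 arrays an age, lines are 1 SE to each side, and filled points have an adjusted p under 0.05. The 7 filled points lie between 0.38 for Rad23b and 1.17 for Nfe2l2, and Ddi2 is an open point at 0.86 with a long line.

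Within slide 2, at 29 against 24 months, 2 of these 26 genes were higher, where 1.08% of all genes were. Nfe2l2 had a log2 change of 1.02 and Zfand5 of 0.74, with limma adjusted p of 0.00788 and 0.016, and their groups did not overlap. At 24 against 3 and at 15 against 3 months 0 of 26 passed in limma. An unadjusted p under 0.05 was reached by 5 and 2 of the 26, beside 4535 and 2371 of all 21777 genes. All 4 arrays of 29 months lay above all other arrays in the mean of the list, at 0.02 to 0.30 in deviation, beside -0.16 to -0.02 at 24 months. Array 1 of 29 months, which was the lowest of its age in this list as in the core, base and lid, had 0.02, and 8 genes passed at 29 against 3 months without it.

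Where a gene had 2 probes, they mostly gave like changes. Of 11 such genes, 10 had the same sign on both probes at 29 against 3 months, Psmb5 being the exception. The largest difference between probes was 0.14, for Psmd10, a chaperone of the base. The second probe of Psmc2 had a log2 change of 0.28 with a limma adjusted p of 0.052 in a fit over probes, beside 0.35 for the probe used. The second probe of Psmg1 had -0.36 and a limma adjusted p of 0.0501, beside -0.30 for the probe used. Psmd11, Psmd8, Psmd4, Psma7 and Psma5 had 1 probe each.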

How the data were processed

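Total RNA from gastrocnemius muscle of 16 samples, 4 at each of 4 ages, was labelled with Cy3 and hybridised to Agilent 1-colour arrays. Per the file headers, intensity values of each spot come from Feature Extraction 10.7.1.1, background-subtracted and not normalized across arrays. The log2 values of the deposited series table had been put on nearly equal distributions by steps not given in the sources used here. They correlated with the scanner signals when joined by feature number (r 0.985 to 0.993 over probes, which are not independent replicates) and not by probe name (r -0.005 to 0.0183), and served as an alternative joined by feature number.

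Outlier and control spots were left out, spots of a probe averaged, signals log2 transformed and each array's 75th percentile subtracted. Gene symbols came through the accession of each probe from a RefSeq table of GRCm38.p6, which matched 26540 of 55588 probes. Probes had to exceed background clearly on every array of some age (28435 probes), and each gene was read from its brightest such probe (21777 genes). The means of the 4 ages were modelled over all 16 arrays by limma 3.58.1 (R 4.3.3), two-sided, with Benjamini-Hochberg adjustment over all genes and a threshold of 0.05. The procedure was also run on simulated data with equal spread at every age and no slide effect, unlike the unequal spread here. No result here rests on that run. Slide comes from the file headers and was a fixed block in the line in age. The number of arrays limits the precision. Promoter sequences are RefSeq's (GRCm38.p6); protein sequences were not used here.

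The members and all lists were chosen with earlier results of these data known. Array values are given for the catalytic subunits and their inducible counterparts, Psme1 to Psme4, members called within a slide, and the largest rise and fall of each class at 29 against 3 months. Other lists name up to 5 called genes by p, and 1 gene of the pathway list is not reported here or counted in it. Array values of the other called members, such as Psma5, were added after seeing them. Genes of the interferon and antigen processing list, none of them called, were also named after their values were seen. Class medians describe and do not test a class.

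The settings varied were the scaling (quantile, array median), background correction (normexp, offset 50, on median spot signals, mean spot signals not being used here), the source (deposited log2 values), the filter (none, or every array), averaging of probes, the arrays fitted (the ages in question, or leaving out each array), replicate number as a block, trended and robust eBayes, limma array weights, and a 1.5-fold minimum. The use of median spot signals and 2 further fits, which drop the 2 or the 4 arrays that limma weighted least, were added with the data in view.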

Additional observations from a re-analysis of the deposited data

Results flagged for a closer look

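A single array lay far from the other 3 of its age, by Dixon's ratio above its 95% critical value, in 8 of 184 sets of a gene and an age (4.35%, where chance gives about 5%). Of these 8, 3 were on array 2 of 24 months and 2 on array 1 of 29 months. Psmb10, an inducible catalytic subunit, was highest on array 2 of 24 months at 4.54, with the others at 3.62 to 3.70. The lid gene Psmd3 was highest on the same array at 6.26, with the others at 5.96 to 6.00, and Psmf1, the inhibitor, was lowest there at -1.78, with the others at -0.80 to -0.61. The catalytic subunit Psmb6 was lowest on array 1 of 29 months at 6.75, with the others at 7.09 to 7.16, and the ATPase gene Psmc1 was lowest on that array at 6.48, with the others at 6.72 to 6.75. At 15 months the core gene Psmb3 was lowest on array 1 at 6.18, with the others at 6.30 to 6.33. At 3 months the activator gene Psme3 was lowest on array 1 at 1.83, with the others at 2.14 to 2.16, and Psmc2 was lowest on array 2 at 6.15, with the others at 6.21 to 6.22. No reason for these values was tested.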

How the results depend on the processing

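No called proteasome gene changed direction. The median change of the immunoproteasome at 29 against 3 months, 0.12 and not called, ran from -0.53 without array 1 to 0.61 without array 3 of 29 months. At 29 against 3 months the 6 proteasome genes called became 10 with array weights or without the 2 arrays of lowest weight, 3 with no filter, 2 in a fit of those ages alone or at 1.5-fold or more, and 1, Psmd11, with scaling by the median, and they ranged from 3 to 10 when single arrays were left out. At 29 against 24 months the single call became 0 under median scaling, no filter, the replicate block, array weights, the ages compared alone, 1.5-fold or more and without the 2 or the 4 arrays of lowest weight, and ranged from 0 to 2 when single arrays were left out. Psmc2 and Psmd11 were the 2 without array 1 of 29 months. At 15 against 3 months, where 0 genes passed, 1 did with array weights (Psmg3), with those ages alone (Psmb9) and without the 4 arrays of lowest weight (Psmb9). At 24 against 3 months 1 passed in the deposited table (Psmd11), and on the line in age 1 passed without the 4 arrays of lowest weight (Psmb9). Those called included Psmg1, as lower, in 7 of 30 alternatives at 29 against 3 months. The median change of the core ranged from -0.0001 to 0.167, that of the lid from 0.16 to 0.29 and that of the base from 0.08 to 0.25. The other pathway genes called at 29 against 3 months numbered 3 to 11, beside 7, with 3 under median scaling, 4 at 1.5-fold or more and 11 with array weights. At 29 against 24 months they numbered 0 to 5, beside 2, with 5 in the deposited table and 0 in a fit of those ages alone or without the 4 arrays of lowest weight. The causes were not tested. Fitting fewer arrays leaves fewer degrees of freedom. The shares of all genes called under the changed settings are not given here, so the numbers of genes called stand without a background.

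Each array's deviations from the means of its age were correlated over genes. Of 24 pairs of arrays with the same replicate number at different ages, 6 had deviations that correlated above 0.1, in a range of -0.47 to 0.30. Pairs with different numbers were not compared, so whether the numbers pair the samples cannot be told. With replicate number as a block, 6 genes passed at 29 against 3 months and 0 at 29 against 24 months. Slide as a random block could not be fitted separately from age, because each age lay on 1 slide.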

Other observations

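Some core and lid genes split the 3-month arrays. Psmd14, Psma6 and Psmb1, chosen after their values were seen, were higher on arrays 1 and 2 than on arrays 3 and 4 of that age. Psma6 read 4.73 and 4.73 on arrays 1 and 2 and 4.32 and 4.33 on arrays 3 and 4, Psmb1 4.28 and 4.20 against 3.79 and 3.87, and Psmd14 1.82 and 1.88 against 1.23 and 1.16. At 24 months array 2 was the lowest of its age for all 3 genes (4.28, 3.92 and 1.15). The arrays of 3 months that were low here had 75th percentile signals of 258 and 283, beside 347 and 333 on the others, and array 2 of 24 months had 209. Array 2 of 29 months and array 1 of 24 months had signals of 239 and 259. They read 4.44 and 4.36 for Psmb1, 4.50 and 4.51 for Psma6, and 1.57 and 1.70 for Psmd14, above the low arrays. Array 1 of 29 months, with a signal of 313, was the lowest of its age for all 3 genes. It read 4.27 for Psma6, the lowest of the 16 arrays, 4.16 for Psmb1 and 1.36 for Psmd14. Array 2 of 15 months, with a signal of 220, was the lowest of its age for all 3 genes. It read 4.45 for Psma6, 4.01 for Psmb1 and 1.46 for Psmd14. The called lid gene Psmd8 split likewise at 3 months, with 3.68 and 3.75 on arrays 1 and 2 and 3.35 and 3.45 on arrays 3 and 4. Psmd8 was lowest on array 2 at 15 months (3.53) and at 24 months (3.59). Of the other called genes, Psmd4 split the other way at 3 months, and Psmd11, Psmc2, Psma7 and Psma5 did not split. Uncalled genes went both ways, such as Psmd6 and Psmb7 with Psmd8, and Psmd3, Psmb3 and Psmb6 against it. The part of overall brightness in these values was not tested.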
